A study of Mus musculus with 2 samples.

Results

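Solute carriers are membrane proteins that move sugars, amino acids, ions, metals, nucleotides and vitamins across the cell surface and the membranes of organelles. Members were taken by name, as every listed symbol that starts with Slc and a digit, leaving out Slc18a2 and symbols ending in Rik, -ps or -as. This gave 62 of the 8139 listed symbols. GENCODE mouse release M21 holds 370 protein-coding symbols that fit the same rule, so the 62 members are 16.8% of the annotated family, and the others were not analysed here. The members come from 29 numbered families.

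The RNA came from cultured mast cells, tissue immune cells that store histamine, proteases and proteoglycans in granules, grown from femoral bone marrow of C57BL/6 mice. The WT group is 1 library from wild type cells and the Tet2-/- group is 1 library from cells lacking Tet2, an enzyme that oxidises 5-methylcytosine in DNA. Both cultures received IL-3 at 10 ng/ml and SCF at 5 ng/ml for 4 to 6 weeks and had a stated purity above 97.5% by 2 mast cell surface receptors. How many mice stand behind each library, and their age, is not given in the sources used here. Values are RPKM, read numbers scaled to gene length and to library size, which can be compared between genes. Since each genotype has a single library, differences are described without a test. No value for the deleted gene Tet2 was analysed here, and the labels of the 2 libraries were taken as given.

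The families divide the work of transport by place and cargo. The Slc25 family sits in the inner mitochondrial membrane, the Slc30 family moves zinc out of the cytosol and the Slc39 family moves it in, and the Slc35 family carries nucleotide sugars into the endoplasmic reticulum and Golgi for building glycans. Mast cell granules hold heavily sulfated proteoglycans, whose synthesis draws on nucleotide sugars and sulfate, and amines that are taken up or packed by carriers.

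Members were separated by level. Where a pair of RPKM values is given, WT comes first. A member was called detected at 1 RPKM or more in at least 1 library, silent where both libraries list the value 0.01, read here as a stand-in for no reads, and weak otherwise. Of the 62 members, 25 (40.3%) were detected, 21 (33.9%) were weak and 16 (25.8%) were silent. Among all 3734 protein-coding genes of the table the shares were 48.4%, 19.7% and 31.9%. The 3 members just inside the detection limit were Slc27a3 at 1.04 RPKM (WT) and 0.837 RPKM (Tet2-/-), Slc25a33 at 1.59 and 1.83 RPKM, and Slc6a4 at 1.83 and 1.84 RPKM. Just outside it were Slc25a29 at 0.587 and 0.919 RPKM, Slc46a1 at 0.375 and 0.629 RPKM, and Slc22a21 at 0.0683 and 0.494 RPKM. Of the detected members, 24 were at 1 RPKM or more in both libraries, the exception being Slc27a3, a member of the fatty acid transport protein family.

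Promoter sequence differed between detected and silent members. RefSeq promoter windows of 300 bases (GRCm38.p6, 250 bases before the start site and 50 after) were found for 47 of the 62 members. The start sites of 39 of these windows lay within 50 bases of the principal GENCODE start. The first bases of an annotated transcript were in 41 of the windows. CpG, the dinucleotide that carries most DNA methylation in mammals, is spelled CG here. The windows of the 19 detected members held a median of 24 CG (6 to 45), those of the 16 weak members a median of 14 (4 to 46), and those of the 12 silent members a median of 6.5 (1 to 24). At least 10 CG stood in the windows of 18 of the 19 detected members (94.7%), 11 of the 16 weak members (68.8%) and 4 of the 12 silent members (33.3%). Other protein-coding genes had the same order of medians, 22 for detected, 9 for weak and 3 for silent genes, so the gradient is not particular to transporters. The ranges of the members overlapped, since Slc25a22, a detected gene, had 6 CG and Slc7a10, a silent gene, had 24.

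The bases before the start site are shown for a pair of detected and a pair of silent members. They were taken from windows that overlap no annotated exon, and capitals mark each CG. The detected members were picked by mean level and the silent ones for the fewest CG, so the silent pair is not typical. Slc35d1 and Slc31a2 are detected and hold 22 and 18 CG in these 250 bases, whereas the silent Slc36a3 and Slc22a6 hold 1 and 0. Slc12a4, also detected and picked by level but not shown, holds 13.
Slc35d1 (chr4:103215177-103215426, minus strand): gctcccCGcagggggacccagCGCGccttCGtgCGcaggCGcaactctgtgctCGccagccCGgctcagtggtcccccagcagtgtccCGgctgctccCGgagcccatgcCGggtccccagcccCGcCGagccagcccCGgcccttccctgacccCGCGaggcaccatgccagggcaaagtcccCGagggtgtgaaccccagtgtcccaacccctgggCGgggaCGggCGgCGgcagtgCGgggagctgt
Slc31a2 (chr4:62286179-62286428, plus strand): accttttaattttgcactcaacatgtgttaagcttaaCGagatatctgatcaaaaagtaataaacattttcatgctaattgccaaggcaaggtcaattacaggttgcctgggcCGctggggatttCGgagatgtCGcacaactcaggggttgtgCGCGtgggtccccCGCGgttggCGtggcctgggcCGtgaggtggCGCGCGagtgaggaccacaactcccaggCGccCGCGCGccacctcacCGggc
Slc36a3 (chr11:55151709-55151958, minus strand): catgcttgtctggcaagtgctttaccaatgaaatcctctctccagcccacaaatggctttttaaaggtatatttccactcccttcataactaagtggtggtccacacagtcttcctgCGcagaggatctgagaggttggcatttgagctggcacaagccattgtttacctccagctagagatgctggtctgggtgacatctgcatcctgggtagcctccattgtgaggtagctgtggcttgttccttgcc
Slc22a6 (chr19:8617746-8617995, plus strand): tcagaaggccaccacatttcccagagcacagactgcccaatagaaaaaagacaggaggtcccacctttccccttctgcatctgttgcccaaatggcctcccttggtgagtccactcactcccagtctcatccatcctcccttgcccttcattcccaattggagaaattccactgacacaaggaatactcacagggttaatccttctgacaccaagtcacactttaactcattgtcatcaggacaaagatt

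Short motifs named for factor classes active in mast cells were counted on either strand of the same windows. The E-box CACGTG was in 12.8% of member windows and in 9.1% of the windows of all 2846 protein-coding genes with one. The GATA core GATAA was in 12.8% of member windows and in 21.7% of all. By state, GATAA was in 10.5% of detected, 18.8% of weak and 8.3% of silent member windows, the last being 1 of 12. In other protein-coding genes of these states the shares were 13.6%, 21.1% and 36.0%. A CG was in all 47 member windows and in 2703 of the 2846 windows of all.

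**Figure D1:**
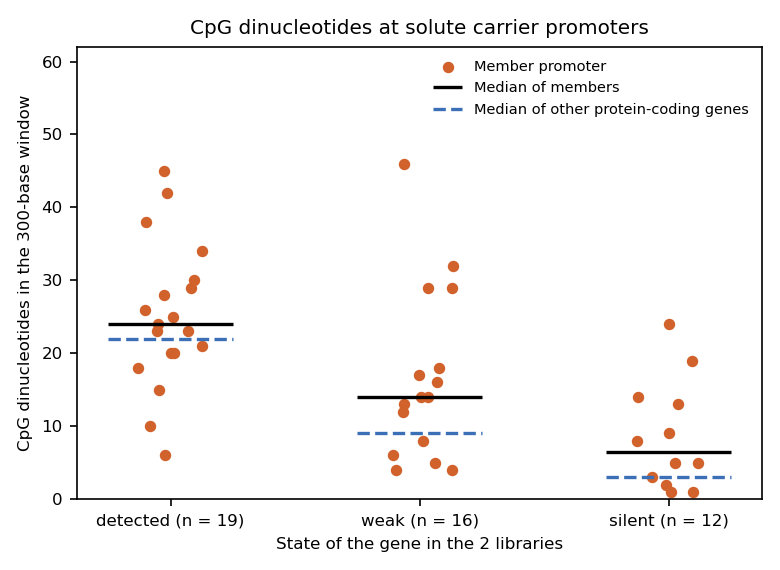
CpG dinucleotides in the 300-base RefSeq promoter window (vertical axis, count) for 19 detected, 16 weak and 12 silent solute carrier genes; each point is 1 promoter, the black line is the median of the members and the dashed line the median of other protein-coding genes of the same state. The member medians step down from 24 to 14 to 6.5, and the other genes step down with them.

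Levels of the detected members were nearly the same in both genotypes. Of the 24 members with a mean of at least 1 RPKM, 0 stood higher in Tet2-/- by 2-fold or more on the log2(RPKM + 1) scale, where 2.90% of all 2107 gene models past that filter did, and 0 stood lower, where 1.61% of all models did. Non-coding models are part of these shares. Among the 1769 protein-coding genes past the filter, 30 were higher and 16 lower. For a group of 24 genes, counts of 0 are near either background. The median log2 fold of the 24 members was 0.003 against 0.009 over all models, and 12 members lay above 0 and 12 below. Their log2 folds ran from -0.23 to 0.58, and the median size was 0.10 against 0.13 in 1509 other protein-coding genes between the same mean levels, 1.71 and 87.2 RPKM. Of these 1509 genes, 2.72% differed by 2-fold or more, both directions counted together. Summed over all 62 members, RPKM came to 443 in WT and 436 in Tet2-/-.

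**Figure D2:**
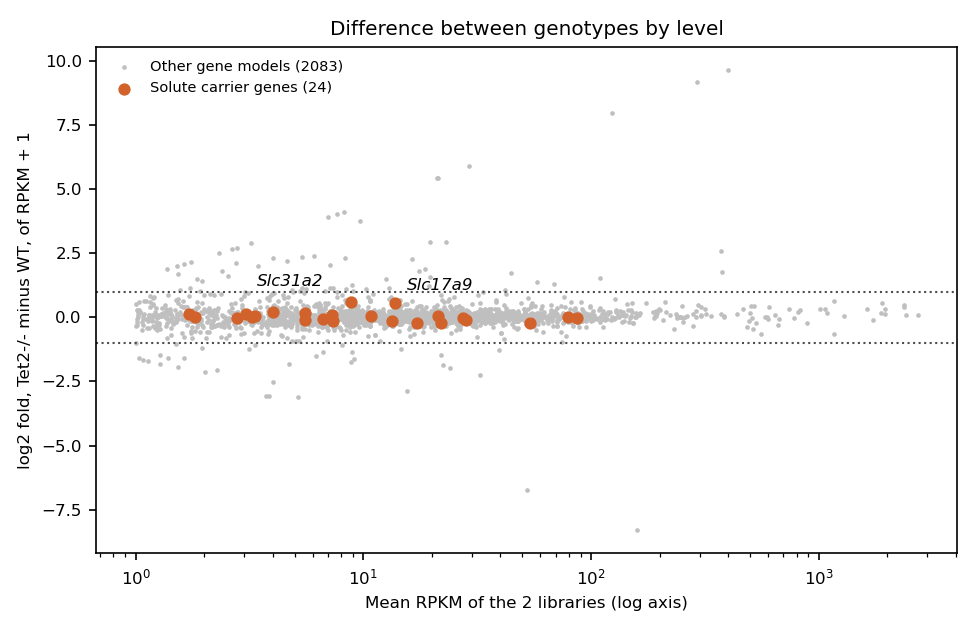
Log2 fold (Tet2-/- minus WT, of RPKM + 1, vertical axis) against the mean RPKM of the 2 libraries (log axis) for 24 solute carrier genes (orange) and for the other models past the 1 RPKM filter (grey); dotted lines mark 2-fold. All orange points lie between the lines, and Slc31a2 and Slc17a9 are the highest of them.

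A smaller size of difference was met by 2 members. An RPKM ratio of 1.5 or more was reached upward in Tet2-/- by Slc31a2 and Slc17a9, 2 of 24 members where 7.64% of all models reach it, and downward by none, where 4.98% do. Bracketed intervals are exact 95% Clopper-Pearson counting intervals of the ratio, from fragment numbers inferred from the spacing of low values at 30900000 fragments in WT and 31700000 in Tet2-/-. They say nothing of variation between cultures or mice, only of counting error. An interval above 1 was found for 5 of the 24 members, where 27.0% of 1924 models with an estimate have one, and an interval below 1 for 6, where 23.7% do. The first group holds Slc31a2, Slc17a9, Slc25a26, Slc22a5 and Slc30a7, and the second Slc6a9, Slc25a39, Slc25a22, Slc6a8, Slc12a4 and Slc39a1. Both counts are close to the background.

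Among metal transporters, 4 of 5 listed members were detected and 1, the zinc exporter gene Slc30a4, was weak, listed at 0.01 in WT and at 0.0118 RPKM in Tet2-/-. Slc39a7, which releases zinc from the endoplasmic reticulum and Golgi to the cytosol, gave 78.7 RPKM in the WT library and 79.8 in Tet2-/-, a Tet2-/-:WT ratio of 1.01 (0.968 to 1.06). Its mean level was above that of 94.8% of listed protein-coding genes. Of its 50-base stretches 74.5% also occur in Gm20427, a transcript that overlaps its exons on the same strand, so its level is uncertain. Slc39a1, a zinc importer of the cell surface, was at 29.4 and 27.0 RPKM, lower in Tet2-/- with a WT:Tet2-/- ratio of 1.09 (1.02 to 1.16). Slc30a7, which loads zinc into the Golgi, was at 20.7 and 21.7 RPKM, a Tet2-/-:WT ratio of 1.05 (1.01 to 1.09). Each zinc gene thus had almost the same level in both genotypes, and the intervals of the last 2 left out 1.

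Slc31a2 had the widest difference of the detected members. This gene, which encodes a copper transporter family protein of endosomes and lysosomes (chromosome 4, 62262562 to 62298411, mm10), gave 6.87 RPKM in the WT library and 10.8 in Tet2-/-. The ratio was 1.57 (1.24 to 1.98), on an estimated 122 and 196 fragments. Of 19 genes that store or handle metals 6 were listed and 5 passed the filter. None of these 5 differed by 2-fold in either direction, where 2.90% of all models past the filter were higher and 1.61% lower. The median log2 fold of the 5 was 0.31, the value of Aco1, at 12.2 and 15.3 RPKM. Aco1 encodes the cytosolic aconitase that also regulates iron genes. Values were higher in Tet2-/- for Mt1, Mt2, Aco1 and Hmox2 and lower for Ccs. The Tet2-/-:WT ratios of Hmox2, 1.01 (0.926 to 1.11), and Ccs, 0.954 (0.847 to 1.07), had counting intervals that included 1. The intervals of Mt1 and Aco1 lay above 1, and Mt2 had no estimate. The metallothionein genes, whose proteins bind zinc and copper, were Mt1 at 122 and 181 RPKM and Mt2 at 22.4 and 41.4 RPKM, while Ccs, the copper chaperone of superoxide dismutase, was at 28.0 and 26.7 RPKM and the heme oxygenase gene Hmox2 at 28.1 and 28.4 RPKM. Atp7b, a copper export pump gene, was at 0.01 in both.

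Mitochondrial carriers were the strongest class by summed level, with 6 of 10 members detected and 181 RPKM in WT against 171 RPKM in Tet2-/-. Slc25a11, which exchanges malate for 2-oxoglutarate (chromosome 11, 70644196 to 70647479), was the highest of all members at 87.8 and 86.6 RPKM, and its interval included 1. Slc25a39, a carrier needed for glutathione import into mitochondria, was at 58.2 and 49.4 RPKM, a WT:Tet2-/- ratio of 1.18 (1.11 to 1.25). Slc25a22, a glutamate carrier, was at 18.5 and 15.8 RPKM, a WT:Tet2-/- ratio of 1.17 (1.07 to 1.27). Both of these carriers stood lower in the Tet2-/- library by a small margin that exceeded counting error, as did 23.7% of all models with an estimate.

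Other mitochondrial carriers leaned the opposite way or showed no separation. Slc25a26, which brings the methyl donor S-adenosylmethionine into mitochondria, was at 3.64 and 4.41 RPKM, a Tet2-/-:WT ratio of 1.21 whose interval (1.001 to 1.47) barely leaves out 1. Slc25a44, a carrier of branched-chain amino acids, was at 10.6 and 11.0 RPKM, and Slc25a33, a pyrimidine nucleotide carrier, at 1.59 and 1.83 RPKM, both with intervals that included 1. Weak members of the class were the basic amino acid carrier Slc25a29, the aspartate and glutamate carrier Slc25a13 at 0.233 and 0.191 RPKM, and Slc25a2, an ornithine carrier gene, at 0.241 and 0.315 RPKM. Slc25a48 was silent. The median log2 fold of the 6 detected carriers was 0.01, with 3 above 0 and 3 below.

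Of the 11 listed carriers of amino acids, amines and creatine, 3 were detected, 2 were weak and 6 were silent. The detected share was 27.3%, against 48.4% of all protein-coding genes of the table. All 3 detected genes belong to the Slc6 family, which couples uptake to sodium and chloride. Slc6a9, a glycine transporter, gave 23.8 RPKM in the WT library and 20.2 in Tet2-/-, a WT:Tet2-/- ratio of 1.18 (1.09 to 1.28). Slc6a8, the creatine transporter, was at 14.2 and 12.6 RPKM, a WT:Tet2-/- ratio of 1.12 (1.02 to 1.24). Slc6a4, the serotonin transporter of the cell surface, was at 1.83 and 1.84 RPKM, with an interval from 0.797 to 1.28. Slc18a2, the vesicular monoamine transporter left out by the rule, was at 572 and 491 RPKM, far above its surface counterpart. The silent genes were Slc7a10, Slc7a13, Slc7a15, Slc6a16, Slc36a3 and Slc38a8, and the peptide transporter Slc15a1 had 0.0318 RPKM in Tet2-/- against 0.01 in WT. Amino acid sensing and response genes, a list outside the family, had 5 of 37 listed and a median log2 fold of 0.08. None of the 5 was beyond 2-fold, where 2.90% of all models past the filter were higher and 1.61% lower. The 5 included Sesn2, a leucine sensor, at 17.1 and 19.5 RPKM, and Tsc2, which restrains mTORC1, at 15.8 and 12.9 RPKM.

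Among carriers of carboxylates and organic ions, 3 of 13 members were detected. Slc17a9, the vesicular nucleotide transporter that loads ATP into secretory vesicles (chromosome 2, positions 180725263 to 180742280), gave 10.9 RPKM in the WT library and 16.7 in Tet2-/-. Its ratio was 1.53, with an interval from 1.395 to 1.69, on an estimated 706 and 1111 fragments, the most precise of the larger differences. Slc22a5, the carnitine transporter that serves fatty acid oxidation, was at 5.21 and 5.94 RPKM, a Tet2-/-:WT ratio of 1.14 (1.004 to 1.29), and Slc22a23, whose cargo is not settled, at 5.77 and 5.37 RPKM, where the interval held 1. The glutamate transporter genes Slc17a6 and Slc17a7, which fill synaptic vesicles of neurons, were silent and at 0.139 and 0.306 RPKM, respectively. Weak values were listed for the monocarboxylate transporter family genes Slc16a5, at 0.0920 and 0.108 RPKM, and Slc16a12, at 0.0166 and 0.0403 RPKM, and for the sulfate transporter gene Slc13a1, at 0.0397 and 0.0129 RPKM. The bile acid transporter Slc10a2 of the ileum and the organic ion transporters Slc22a6, Slc22a29 and Slc47a1 were silent as well.

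Inorganic ion carriers differed little. Of 9 members 4 were detected and none was silent. The potassium and chloride cotransporter gene Slc12a4 was at 7.74 and 6.93 RPKM, a WT:Tet2-/- ratio of 1.12 (1.01 to 1.23), and the phosphate transporter gene Slc20a2 at 6.86 and 6.45 RPKM. Slc26a2, which imports the sulfate used for proteoglycans, was at 3.25 and 3.44 RPKM. Slc12a5, a cotransporter best known from neurons, was at 2.81 and 2.78 RPKM, a Tet2-/-:WT ratio of 0.990 (0.728 to 1.33) on an estimated 90 and 91 fragments. The last 3 had intervals that included 1. The 5 weak members were the anion transporter genes Slc26a1, at 0.312 and 0.258 RPKM, and Slc26a9, at 0.0183 and 0.0359 RPKM, the sodium and proton exchanger Slc9b2, at 0.0346 and 0.0606 RPKM, the sodium and calcium exchanger Slc8a3, at 0.0135 and 0.0397 RPKM, and the bicarbonate transporter Slc4a5, at 0.01 and 0.0128 RPKM. All 5 counting intervals included 1. Genes of ion pumps, which set the gradients many carriers use, had 4 of 30 listed and 3 past the filter. None of these 3 was beyond 2-fold, where 2.90% of all models past the filter were higher and 1.61% lower. The 3 were the vacuolar ATPase genes Atp6ap2 at 39.7 and 47.4 RPKM and Atp6v1c1 at 34.0 and 35.2 RPKM. The third was the Golgi calcium pump gene Atp2c1 at 32.9 and 31.6 RPKM.

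Nucleotide sugar and nucleoside carriers had a summed level of 37.7 RPKM in each library. Slc35d1, which supplies nucleotide sugars for glycosaminoglycan chains in the endoplasmic reticulum, was at 27.7 and 26.9 RPKM, Slc35b4, a carrier of UDP-xylose, at 7.04 and 7.49 RPKM, and Slc29a3, a nucleoside carrier of lysosomes, at 2.90 and 3.23 RPKM. All 3 intervals included 1. The other 3 members, Slc35f2, Slc35f3 and Slc28a3, were each at 0.01 in 1 of the libraries. Slc35f2 had 0.0654 RPKM in Tet2-/- only, while Slc35f3 and Slc28a3 had 0.0450 and 0.0146 RPKM in WT only.

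Among the sugar families 1 of 5 members was detected, and it is a vitamin carrier. Slc5a6, which takes up biotin and pantothenate, was at 3.25 RPKM in both libraries, with an interval from 0.847 to 1.18. Slc2a13, the myo-inositol transporter, Slc5a10 and Slc45a2, a gene of pigment cells, were silent, and the iodide transporter gene Slc5a5 of the thyroid was at 0.0116 and 0.0227 RPKM. Of the 3 remaining members, Slc27a3 was detected, the folate transporter gene Slc46a1 was weak and the liver gene Slc27a5 was silent.

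**Figure D3:**
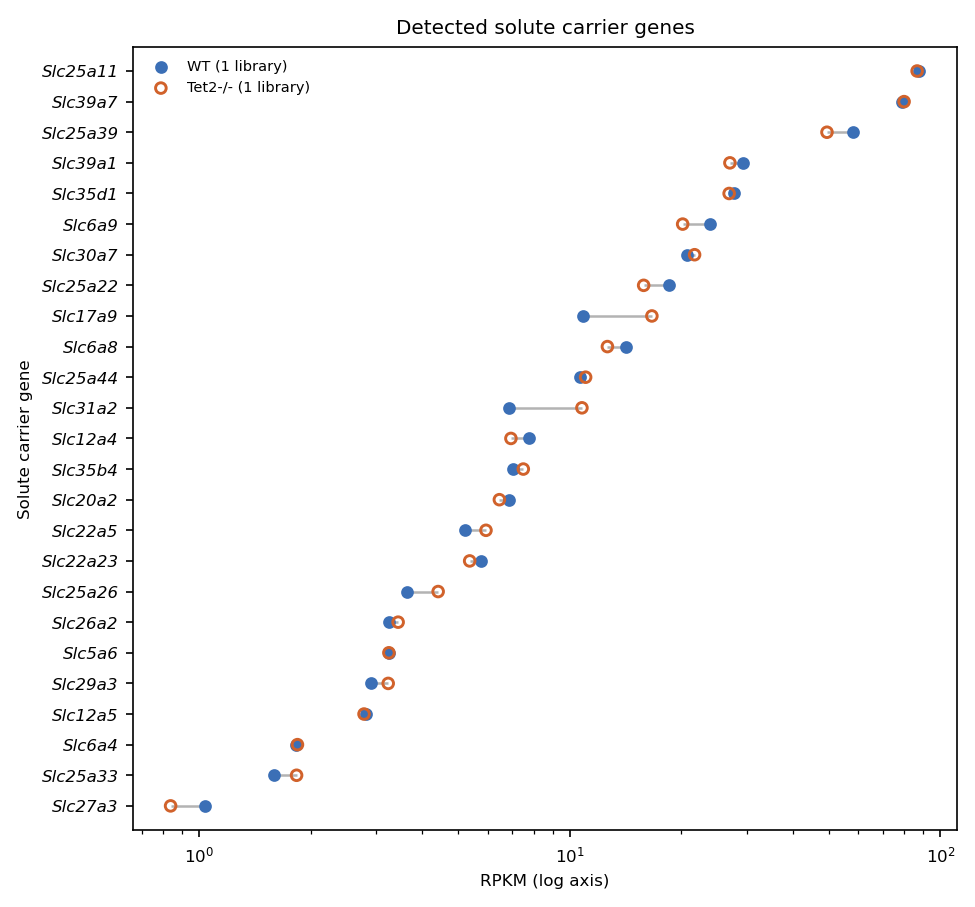
RPKM (log axis) of the 25 detected solute carrier genes in the WT library (filled) and the Tet2-/- library (open), ordered by mean level; each point is 1 library, so no error bar is drawn. Most pairs nearly coincide, and Slc31a2 and Slc17a9 show the longest lines, with the open point to the right.

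The weak members leaned toward Tet2-/-, on very few fragments. Of 21 weak members 16 had the higher value in Tet2-/- and 5 in WT, while 52.8% of 680 other weak protein-coding genes were higher in Tet2-/-. Of the 21, 13 rested on fewer than 10 estimated fragments in both libraries, and none exceeded 53. Whether this lean is more than counting error was not tested. A counting interval above 1 was found for 2 of them, against 10.7% of the other weak genes, and an interval below 1 for 0, against 5.15%. For a group of 21 genes, both counts are near that background.

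Those 2 members were Slc7a2 and Slc22a21. Slc7a2, which encodes a transporter of arginine and other cationic amino acids that macrophages induce on activation (chromosome 8, 40862396 to 40922308), gave 0.0366 RPKM in the WT library and 0.268 in Tet2-/-, on 4 and 30 estimated fragments. Its ratio was 7.32 (2.58 to 28.6), and its exons overlap Gm26584, a non-coding RNA gene on the opposite strand. Slc22a21, which also encodes a carnitine transporter (chromosome 11, positions 53949965 to 53980332), was at 0.0683 and 0.494 RPKM, on 7 and 52 fragments, a Tet2-/-:WT ratio of 7.23 (3.28 to 18.9). It lies near its relative Slc22a5, and 22.0% of its 50-base stretches also occur in transcripts of other genes, chiefly Slc22a5, so its reads may have been shared.

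Markers of other blood cells had higher summed levels in the Tet2-/- library. The 6 listed of 15 macrophage and monocyte markers were all higher in Tet2-/-, and none was at 0.01. Their summed level was 1.06 RPKM in WT and 23.8 RPKM in Tet2-/-, most of the latter from Ly6c2 at 0.479 and 18.8 RPKM. Csf1r, the receptor that macrophages need to survive, was at 0.122 and 1.32 RPKM. The 3 listed neutrophil and precursor markers summed to 1.12 and 10.1 RPKM, nearly all of it Ly6g at 1.10 and 9.61 RPKM. Csf3r was at 0.01 in both. The 3 listed basophil and eosinophil markers summed to 57.0 and 166 RPKM, nearly all of it the basophil protease gene Mcpt8 at 56.1 and 163 RPKM, and of the 2 listed erythroid and platelet markers the globin gene Hbb-y was at 2.22 and 12.1 RPKM and Ppbp at 0.01 in both. Of 18 mast cell markers 3 were listed, Fcer1g at 594 and 438 RPKM, Hpgds at 69.0 and 66.5 RPKM and Mitf at 31.3 and 30.9 RPKM. In bulk RNA fewer cells of a type and less RNA per cell cannot be told apart, and the part of other cell types in the values of Slc7a2 and Slc22a21 was not tested.

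**Figure D4:**
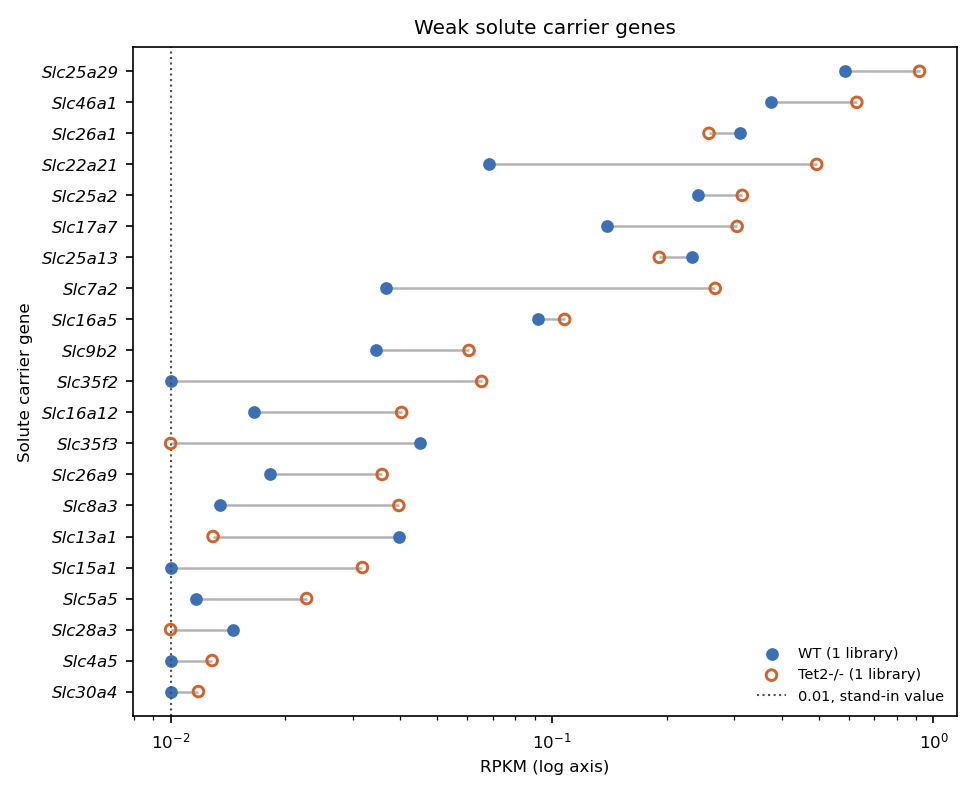
RPKM (log axis) of the 21 weak solute carrier genes in the WT library (filled) and the Tet2-/- library (open); the dotted line marks 0.01, the value read as a stand-in for no reads. In 16 rows the open point lies to the right, and Slc22a21 and Slc7a2 have long lines among genes with several fragments, while the lowest rows rest on 1 to 5 fragments.

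Among the 10 genes of the accessory carrier and ABC transporter lists that passed the filter, only Abcg2 stood beyond 2-fold. Of all 2107 gene models past the filter 2.90% stood higher by that size and 1.61% lower. For a group of 10 genes, a count of 1 is near that background. These lists do not hold every transporter gene of the table. Of 53 accessory proteins and carriers with other names 9 were listed and none of the 6 past the filter reached 2-fold, with a median log2 fold of 0.03. Mpc1, a subunit of the mitochondrial pyruvate carrier, was at 53.5 and 58.5 RPKM, and Spns3, a member of the Spinster family, at 54.7 and 39.7 RPKM. The lysosomal gene Cln3 was at 49.95 and 47.5 RPKM and the phosphate exporter gene Xpr1 at 23.2 and 25.2 RPKM. Of 31 genes of ATP-driven ABC transporters 4 were listed, 1 of them, the drug efflux pump gene Abcg2 at 1.25 and 10.9 RPKM, beyond 2-fold, and the list's median log2 fold was 0.06. The other 3 were Abcb1b at 53.7 and 66.9 RPKM, Abcc1 at 45.6 and 38.1 RPKM and Abcb6 at 10.0 and 8.62 RPKM.

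Some values hold reads that cannot be assigned with certainty. The exons of 9 detected members overlap a gene on the opposite strand (Slc12a4, Slc20a2, Slc25a11, Slc25a26, Slc25a33, Slc30a7, Slc35b4, Slc5a6 and Slc6a9), and whether the libraries kept strand is not given in the sources used here. Of the 50-base stretches of Slc22a5, 26.3% occur in other genes, mostly Slc22a21, and 21.8% of those of Slc39a1 occur in a pseudogene copy, which was at 0.01 in both libraries. The share was 13.6% for Slc5a6, with Gm6157 and Gm9415, and highest for Slc39a7, as given above.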

How the data were processed

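The members and lists were chosen with earlier results of these data known. The authors deposited 1 table of RPKM values, 1 column for each library, per the file headers. The genome build is mm10 in the submitters' processing notes, and no aligner, counting program or annotation is given in the sources used here. Of the 8139 symbols, 58.1% in WT and 57.4% in Tet2-/- are listed at 0.01. This was read as a stand-in for no reads, which is uncertain because 67 and 80 values lie below it.

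Depth was inferred as the depth at which low RPKM values of single-transcript genes of at least 800 bases became whole fragments, with transcripts shortened by 170 bases. Of 286 genes in WT and 310 in Tet2-/- with 0.5 to 12 fragments, 95.5% and 95.8% then came within 0.1 of a whole number. Fragments of each gene used its shortest basic transcript in GENCODE M21, which widens intervals, and none was estimated below 400 bases. Folds were computed from log2(RPKM + 1), a scale on which low genes appear less changed, and a size of 2-fold stands in place of a test. Classes follow family numbers, so a member's cargo can differ from its class. The naming rule took members beyond 2-fold, the 15 highest, the 4 highest detected of each class, 3 on either side of 1 RPKM, and detected ones with a ratio of at least 1.5 whose interval leaves out 1, and from each other list up to 4 genes reaching 10 RPKM. Other genes were named after their values were seen. Promoter sequences are from RefSeq (GRCm38.p6), 1 window per gene, the one nearest to the principal GENCODE start. The calculations were tested on simulated data. Alternatives were other pseudocounts, filters, thresholds and median-ratio scaling. The work used Python 3.11.15 with numpy 2.4.6, with pandas 2.3.3 and scipy 1.17.1, and figures were drawn in matplotlib 3.10.9.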

Additional observations from a re-analysis of the deposited data

How the results depend on the processing

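The counts of 0 members beyond 2-fold, higher or lower, held under pseudocounts of 0.1 and 5 RPKM, no filter, a mean of at least 5 RPKM, median-ratio scaling and thresholds of 1.5-fold and 4-fold. The count at 1.5-fold rests on the pseudocount of 1 RPKM. On that scale Slc31a2 and Slc17a9 fell just short, at log2 folds of 0.582 and 0.574, while their plain RPKM ratios exceeded 1.5. A pseudocount of 0.1 RPKM with no filter, chosen after seeing the data, gave 2 members higher, Slc22a21 at a log2 fold of 1.82 and Slc7a2 at 1.43, and 0 lower. Neither choice alone gave any. The number detected was 25, and 12 members reached 10 RPKM. Other detection limits stayed within 1.5 times of 25. Of 81 alternative log2 folds of 27 named members 80 stayed within 1.5-fold, 1 moved (Slc22a21, above) and 0 changed sign. A pseudocount cannot change a sign, and the scaling shifted each ratio by only 0.0083 on the log2 scale. All 21 alternative medians of the classes stayed within 1.5-fold. No paired analysis was possible because there is a single library of either genotype, so none could be omitted. Depth limits the weak members most, for Slc8a3 has 1 and 4 fragments and an interval of 0.386 to 192.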
